A study of Mus musculus with 2 samples.

Results

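Splicing factors of 3 gene families were followed through the cell classes of the mouse spinal cord: the heterogeneous nuclear ribonucleoproteins (Hnrnp genes), the serine/arginine-rich splicing factors (Srsf genes) and the subunits of the SF3a and SF3b complexes (Sf3 genes). Every gene whose symbol began with Hnrnp, Srsf, Sf3a or Sf3b was taken, which gave 40 of the 32285 genes listed: 20 Hnrnp, 11 Srsf and 9 Sf3 genes. The families were chosen with earlier results of these data known, but the rule itself uses no measured value, and all 40 genes had UMIs in both libraries. Single-cell RNA sequencing of whole spinal cord at postnatal day 4 was done on FVB mice with the 10x Genomics 3′ chemistry. The library labelled SMA came from mSmn-/-, hSMN22tg/0 mice, a severe model of spinal muscular atrophy, and the library labelled Con from mSmn+/-, hSMN22tg/0 mice, which retain 1 Smn allele. Both groups carried the human SMN2 transgene, so the controls were not wild type. Littermates were pooled into 1 library per genotype, and their sexes were not given in the sources used here. With 1 library a group no difference between the genotypes has a replicate check, and no p-value is given; intervals are 95% exact intervals that cover counting error only.

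Pre-mRNA splicing starts when U1 and U2 small nuclear ribonucleoproteins (snRNPs) mark the ends of an intron. SR proteins, encoded by the Srsf genes, bind exons and generally favour the use of nearby splice sites, whereas many hnRNPs bind introns and exons and often oppose it. SF3a and SF3b are parts of the U2 snRNP and clamp it on the branch point, the adenosine that forms the intron lariat. The SMN protein, reduced in spinal muscular atrophy, loads the Sm ring onto the snRNAs during snRNP assembly. Counts from 3′ ends give the amount of mRNA of a gene but do not tell its isoforms apart, so splicing itself was not measured.

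The 150 bases upstream of the RefSeq start (GRCm38.p6) are shown for 4 of the genes on which the results below turn. Hnrnpa3 (chr2:75659109-75659258, + strand) and Hnrnpab (chr11:51606882-51607031, - strand) were 1.5-fold or more higher in cycling cells of 2 classes on the CPM scale, Srsf6 (chr2:162931358-162931507, + strand) was lower in SMA in every class compared and Sf3b6 (chr12:4817458-4817607, + strand) was higher. Capitals mark the CCAAT box in Hnrnpa3 and Hnrnpab and the core CCGGAAG of ETS factors or its reverse complement in Sf3b6, and the Srsf6 window held none of the motifs searched.
Hnrnpa3: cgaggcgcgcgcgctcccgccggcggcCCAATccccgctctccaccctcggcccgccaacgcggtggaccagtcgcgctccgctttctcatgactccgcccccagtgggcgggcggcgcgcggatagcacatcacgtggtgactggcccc
Hnrnpab: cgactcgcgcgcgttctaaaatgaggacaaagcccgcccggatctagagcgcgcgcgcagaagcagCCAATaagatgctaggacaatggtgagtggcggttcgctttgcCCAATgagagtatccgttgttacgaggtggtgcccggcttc
Srsf6: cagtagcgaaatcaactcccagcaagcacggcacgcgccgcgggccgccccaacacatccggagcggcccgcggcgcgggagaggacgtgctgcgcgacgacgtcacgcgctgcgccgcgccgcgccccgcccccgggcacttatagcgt
Sf3b6: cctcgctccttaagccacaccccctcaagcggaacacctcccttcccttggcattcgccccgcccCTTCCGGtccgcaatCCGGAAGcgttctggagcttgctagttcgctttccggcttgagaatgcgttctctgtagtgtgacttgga
Of the 40 genes, 36 had a start listed there, and Hnrnpll, Hnrnpul2, Sf3b4 and Sf3b5 did not. Over the 250 bases upstream of their 49 starts, CCGGAAG stood on either strand in 16 windows (32.7%), against 6.91% of 32851 windows of all genes. The E2F core GCGGGAA was found in 9 windows (18.4%), against 3.82% of all. CCAAT was found in 23 windows (46.9%), against 33.8% of all. By gene these were 33.3%, 19.4% and 50% of the 36 members against 7.83%, 4.38% and 37.5% of all genes. The ETS and E2F cores share the letters GGAA, but no single GGAA can belong to both. Starts of 1 gene can overlap, and the windows were not matched for base composition. A match of letters is a description and not evidence that a factor binds.

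Before any comparison, the barcodes of the libraries were set side by side. Levels are given as CPM, the UMIs of a gene summed over the cells of a class per 1000000 UMIs of that class. The library labelled SMA held 26921 barcodes and 85872075 UMIs, the library labelled Con 25419 barcodes and 97894084 UMIs, and 8163 barcodes were in both. Of 7131 Con barcodes with 5000 UMIs or more, 7058 (99.0%) were also listed in SMA, whereas 160 of 5750 such SMA barcodes (2.78%) were listed in Con. The shared SMA barcodes were left out, and values with them kept are given for several results that they change. A cluster of 1333 Con and 0 SMA barcodes with a high share of ribosomal-protein UMIs was also left out, which left 6787 SMA and 8923 Con cells with medians of 6109 and 6228 UMIs. These fell into 30 clusters, named as X-like from marker lists, with 5 left unnamed. The classes compared are the 9 named ones with at least 50 cells in each library, erythroid-like cells (382 SMA and 908 Con) left out because haemoglobin filled most of their UMIs: OPC-like (oligodendrocyte precursors), COP-like (committed precursors), astrocyte-, ependymal-, microglia-, endothelial-, mural-, Schwann- and fibroblast-like cells. Neuron-like cells numbered 43 and 26 and were not compared. Between the libraries, the ribosomal-protein share was higher in SMA in 9 of 9 classes (log2 ratio 0.01 to 0.16), Malat1 in 8 of 9, and haemoglobin mRNA, at 410.2 to 34248 CPM, in 2 of 9. Their part in the differences between the libraries was not tested.

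Smn1, the gene inactivated in the model (chr13:100124852-100137690, + strand, GRCm38), did not separate the libraries. It stood at 71.2 CPM in SMA and 75.0 CPM in Con in OPC-like cells and at 42.8 and 41.7 CPM in astrocyte-like cells. Over the 9 classes it was lower in SMA in 3 and higher in 6, with log2 ratios from -0.22 to 0.43, and every interval included 0. Where the altered part of the allele lies relative to the counted 3′ end was not given in the sources used here, so Smn1 counts do not check the genotype labels, and the groups are named below as labelled.

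The 40 genes together made up 5600 to 10923 CPM of a class. On this scale OPC-like cells had the highest summed level in both libraries, 10120 CPM in SMA and 10923 CPM in Con, followed by COP-like cells at 9246 and 9499 CPM. Microglia-like cells stood at 7612 and 7173 CPM, mural-like cells at 6986 and 7719 CPM, ependymal-like cells at 7003 and 7073 CPM and Schwann-like cells at 6807 and 6334 CPM. The lowest sums were those of endothelial-like (6115 and 6392 CPM), astrocyte-like (5723 and 5839 CPM) and fibroblast-like cells (5605 and 5600 CPM). The order of the middle classes differed between the libraries, and with 1 library each no neighbours there can be ranked. Without their cycling cells OPC-like cells were at 9449 CPM in SMA and 10245 CPM in Con. The first place depended on the scaling. With TMM scaling, which sets the bulk of genes level between classes, microglia-like cells came first at 9646 and 9491, OPC-like cells stood at 8012 and 8658 (7545 and 8088 without cycling cells) and COP-like cells at 7803 and 8684. With per-cell means, or with haemoglobin, mitochondrial and ribosomal genes out of the denominator, OPC-like cells came first in both libraries. Among classes too small for the comparisons, neuron-like cells held 7280 and 7336 CPM, oligodendrocyte-like cells 5513 and 5685 CPM and macrophage-like cells 5422 and 5946 CPM. Erythroid-like cells held 320.9 and 344.1 CPM, where haemoglobin filled most of the UMIs, and 3101 and 3309 CPM with haemoglobin left out of the total.

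**Figure D1:**
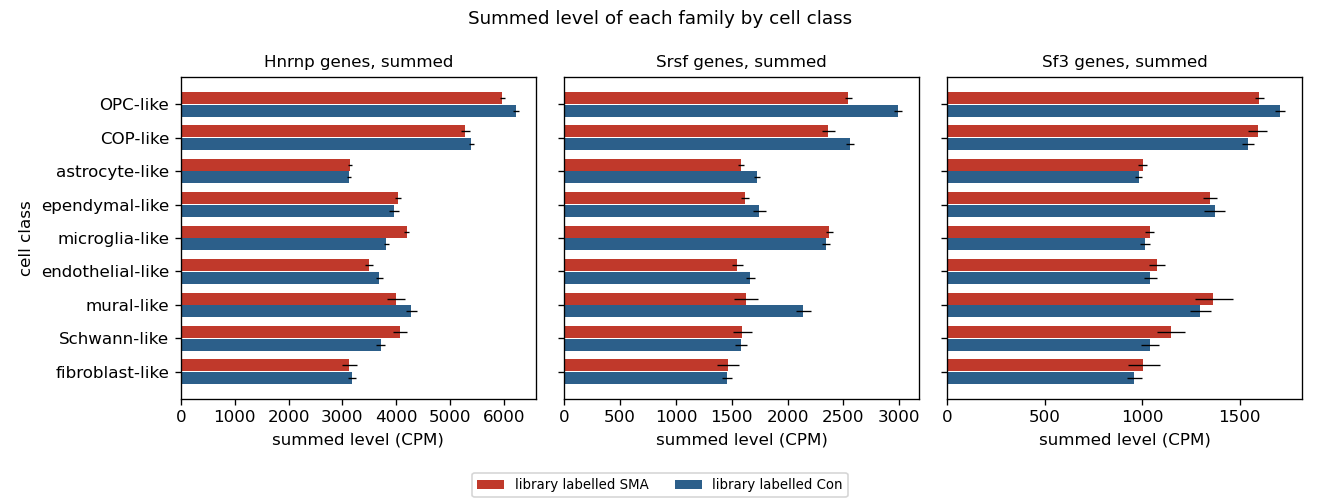
Summed level in CPM (x axis) of the Hnrnp, Srsf and Sf3 genes in each of 9 cell classes (y axis), with the library labelled SMA in red and the library labelled Con in blue; error bars are exact 95% Poisson intervals for counting error. On this scale OPC-like cells stand highest in all 3 panels (with TMM scaling microglia-like cells had the highest sum of all 40 genes), and the widest gap between the libraries is that of the Srsf genes in mural-like cells, at 1627 CPM in SMA and 2139 CPM in Con.

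Hnrnp genes carried the larger part of this signal, at 3129 to 6228 CPM a class, against 1460 to 2988 CPM for the Srsf genes and 959.3 to 1707 CPM for the Sf3 genes. Each UMI counts 1 captured 3′ end, so these levels are not divided by length. The most abundant hnRNP was Hnrnpk, a poly(C)-binding protein, with a mean level of 681.4 CPM over the classes and a range from 470.0 CPM in Con fibroblast-like cells to 1036 CPM in Con OPC-like cells. Hnrnpa2b1, which binds mRNAs that oligodendrocytes carry into their processes, was the most even of the 4 most abundant Hnrnp genes at 456.3 to 696.8 CPM (mean 562.8 CPM). Hnrnpa3 (mean 480.6 CPM) and Hnrnpa1 (mean 389.4 CPM), hnRNPs of the A/B type, were next. Hnrnpa1 ran from 198.9 CPM in SMA astrocyte-like cells to 730.8 CPM in Con OPC-like cells.

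Of the SR proteins, Srsf3 was the highest at a mean of 417.1 CPM, and its level ran from 268.6 CPM in SMA ependymal-like cells to 746.5 CPM in Con OPC-like cells. It encodes the smallest SR protein, which also acts in mRNA export. Srsf7 (295.7 CPM), Srsf5 (235.3 CPM) and Srsf2 (230.4 CPM) came next by mean level. Srsf12 was the lowest of all members at a mean of 2.92 CPM over the 9 classes, with no UMI in SMA Schwann-like, SMA fibroblast-like and Con mural-like cells, but it stood at 28.3 CPM (14.1 to 50.6) and 37.9 CPM (18.2 to 69.8) in the few neuron-like cells, on 11 and 10 UMIs. Among the SF3 subunits, Sf3b6, which sits next to the branch point adenosine, had the highest mean level (330.2 CPM), above Sf3b1 (221.2 CPM), the largest SF3b subunit, Sf3b2 (201.3 CPM) and the small subunit Sf3b5 (194.1 CPM). The SF3a genes were lower, at means of 35.4 CPM for Sf3a2, 35.5 CPM for Sf3a1 and 58.1 CPM for Sf3a3.

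For 29 of the 40 genes (72.5%) the same class was the highest in both libraries, as it was for 72.1% of 14191 genes with at least 100 UMIs. For 20 members (50%) this was the OPC-like class, against 15.3% of these genes, but with TMM scaling it was for 6 (15%, against 7.37%), and microglia-like cells were the highest for 12 (30%, against 16.5%). On the CPM scale microglia-like cells were the highest for 4, ependymal-like cells for 3 and COP-like cells for 2. When each class was set against the mean of the other 8 classes, 18 of 40 members (45%) were 1.5-fold or more higher in OPC-like cells in both libraries, against 26.7% of all genes compared, and 0 were lower, against 21.8%. In COP-like cells 8 of 40 (20%) were higher, against 20.5% of all genes, and 0 were lower, against 25.7%. The median log2 ratio of the members in OPC-like cells was 0.57 in SMA and 0.65 in Con, where that of all genes was 0.23 and 0.22. In COP-like cells it was 0.41 and 0.39, where all genes gave 0.11 and 0.04. With TMM scaling 4 of 40 members (10%) were higher in OPC-like cells, against 14.8% of all genes, and 3 (7.5%) in COP-like cells, against 14.4%, so the larger share of members in OPC-like cells did not hold there. The 4 were Srsf12, Hnrnpr, Hnrnpdl and Hnrnph3. In microglia-like cells 11 (27.5%) were higher with TMM scaling, against 21% of all genes.

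The members with the largest ratios in OPC-like cells were Hnrnp and Srsf genes. Srsf12, an SR-like protein that opposes other SR proteins, was 2.66 (SMA) and 2.26 (Con) log2 units above the other classes, at 11.6 and 9.86 CPM. Hnrnph3 reached 144.1 CPM in SMA and 127.7 CPM in Con, 1.17 and 1.03 log2 units above the others. Hnrnpr, which associates with SMN in motor axons, was at 249.9 and 270.0 CPM, 1.03 and 1.17 above. What these share is the direction in both libraries, with gaps of over 1 log2 unit. Hnrnpdl (0.98 and 1.09), Srsf10 (0.90 and 0.96), Hnrnpll (0.89 and 1.05), Srsf1 (0.89 and 1.10) and Hnrnpd (0.88 and 1.12) followed. In COP-like cells, Hnrnpa1 led at 660.2 and 725.3 CPM, 1.00 and 0.96 above the other classes.

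Astrocyte-like cells showed the opposite side: 0 of 40 members were higher in both libraries, against 13.1% of all genes, and 11 (27.5%) were lower, against 27.1% of all genes. By the ratio to the other classes Hnrnpab was the lowest of these, at 111.3 CPM in SMA and 97.7 CPM in Con, where COP-like cells had 369.2 and 354.0 CPM. Its log2 ratio to the other classes was -1.14 and -1.29. Hnrnpa1 followed at -0.97 and -0.93 and Hnrnpul2 at -1.02 and -0.79. The share of members lower in astrocyte-like cells was close to that of all genes and is no result about the family.

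Members of a family took different directions in ependymal- and microglia-like cells. In ependymal-like cells 3 members were higher (7.5%, against 18.5% of all genes) and 5 lower (12.5%, against 25.9%). Sf3b2 reached 339.2 CPM in SMA and 387.4 CPM in Con there, its highest level in any class, 0.98 and 1.03 log2 units above the other classes, whereas Sf3b1, another subunit of the SF3b complex, was lower (-0.70 and -0.64). Hnrnph3 and Hnrnpf (0.69 and 0.76) were higher as well, and Hnrnph1, a close relative of Hnrnpf, was lower at -1.08 and -1.14. In microglia-like cells Srsf2 (0.81 and 0.74), Sf3b1 (0.77 and 0.77) and Hnrnpul1 (0.70 and 0.91) were higher, which was 7.5% of members against 14.1% of all genes. Another 6 (15%, against 46.3% of all genes) were lower, among them Hnrnph3, at 25.3 and 25.9 CPM (-1.64 and -1.54), and Sf3b6, at 196.8 and 164.4 CPM (-0.98 and -0.92). Sf3b1 and Sf3b6, subunits of 1 complex, thus stood on opposite sides of their own means in these cells.

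In the remaining classes no member was higher in both libraries, where 6.37% of all genes were in Schwann-like, 8.4% in mural-like, 10.3% in endothelial-like and 7.67% in fibroblast-like cells. No member was lower in Schwann-like cells (29.6% of all genes) or mural-like cells (20.1%). Srsf6 and Srsf12 were lower in endothelial-like cells (5% of members against 34.3% of all genes). In fibroblast-like cells 6 of 39 members compared were lower (15.4%, against 27.6%), namely Hnrnpdl, Hnrnpll, Sf3a1, Srsf2, Srsf4 and Srsf10.

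**Figure D2:**
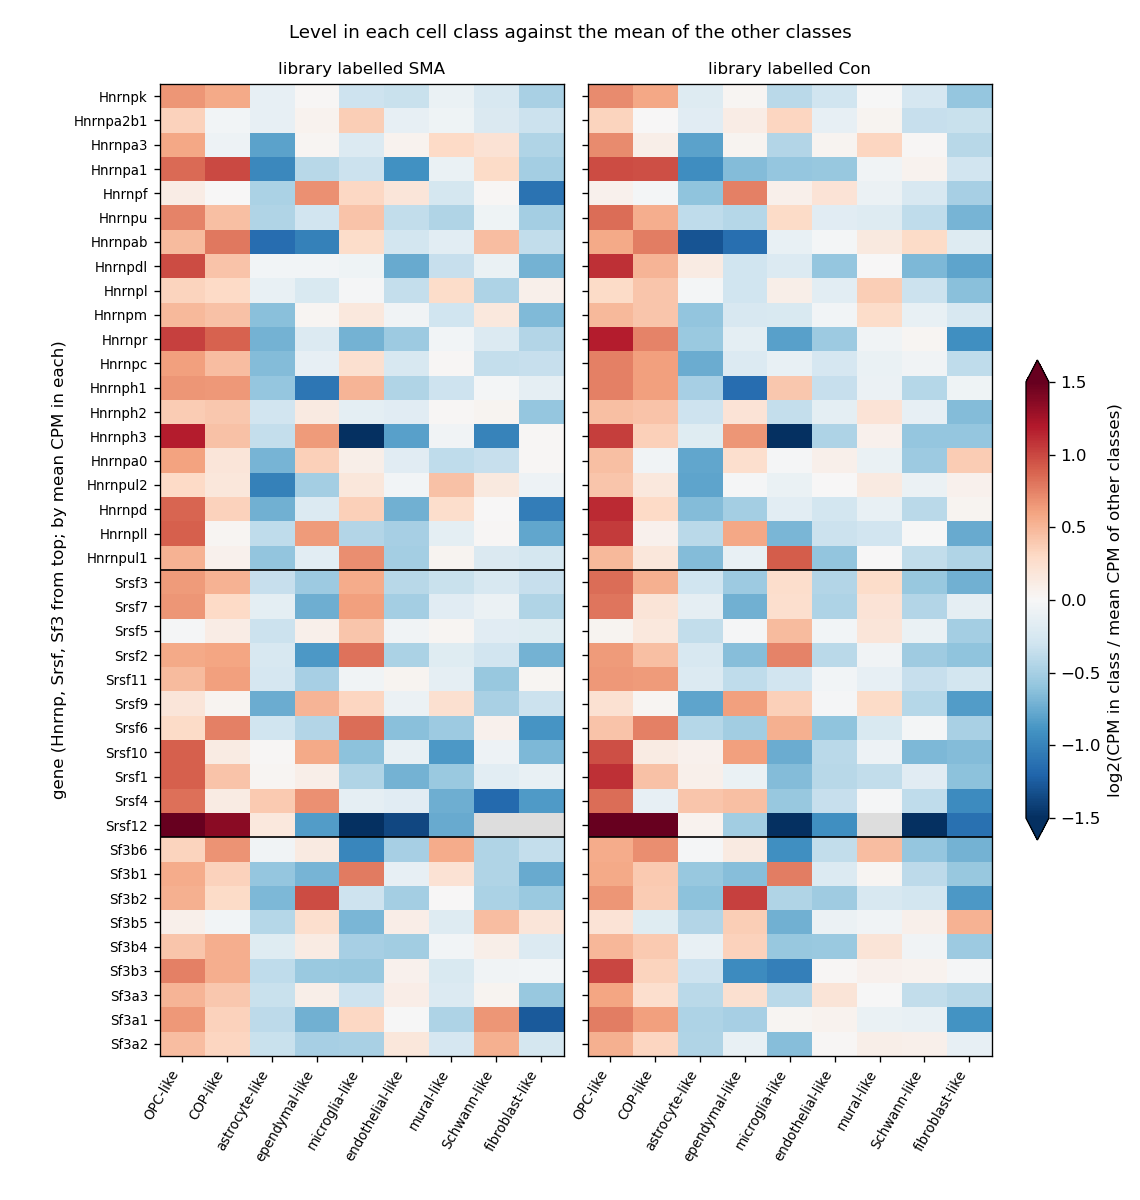
Log2 ratio of the CPM of each member (rows, grouped by family and ordered by mean CPM) in each of 9 classes (columns) to its mean CPM in the other 8 classes, for the library labelled SMA (left) and Con (right); red is higher, blue lower, colours end at 1.5 log2 units and grey cells had no UMI. On this CPM scale the OPC-like and COP-like columns are red for nearly all genes in both panels, and Sf3b2 and Hnrnpf in ependymal-like cells and Sf3b1 in microglia-like cells stand out from columns of mixed sign.

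The design's main comparison was SMA against Con within each class. Few members differed by 1.5-fold or more. Over the 9 classes 344 pairs of a member and a class had at least 100 UMIs, and 5 of them (1.45%) were 1.5-fold or more higher in SMA, against 3.63% of 61163 pairs of all genes, while 8 (2.33%) were that much lower, against 4.05%. Fibroblast-like cells gave 7 of the 13 pairs. Of the 601 Con fibroblast-like cells, 432 were in a cluster that held 0 SMA cells, and the other cluster held 64 SMA and 169 Con cells. Without fibroblast-like cells 308 pairs remained, with 1 higher (0.325%, against 2.92% of all) and 5 lower (1.62%, against 2.83%). Over the alternatives tried, the member pairs higher in SMA ran from 1, with TMM scaling, to 7 and those lower from 3 to 13. The pairs of all genes were not matched to those of the members for UMI count, on which counting error depends. The smaller shares of members are therefore no sign of their stability. No member was past 1.5-fold in COP-like cells, where 3.14% of all genes were higher and 1.89% lower, or in OPC-like cells, where 1.75% were higher and 1.39% lower. The same held for astrocyte-like (1.59% and 3.36%), endothelial-like (4.12% and 5.06%) and microglia-like cells (3.57% and 1.08%). In Schwann-like cells 1 of 38 members was higher, against 5.79% of all genes, and 0 were lower, against 5.13%. In ependymal-like cells 0 of 39 were higher, against 2.18%, and 1 was lower, against 2.34%. In mural-like cells 0 of 35 were higher, against 4.68%, and 4 were lower, against 6.99%. The summed level of all members differed by log2 ratios of -0.14 to 0.10 over the classes.

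By summed level, the Srsf genes were lower in SMA in more classes than the Hnrnp or Sf3 genes. By single pairs, 53 of 88 Srsf pairs (60.2%, median -0.09), 48 of 78 Sf3 pairs (61.5%, median -0.11) and 80 of 178 Hnrnp pairs (44.9%, median 0.02) lay below 0, where 51.2% of the pairs of all genes did (median -0.01). The summed level of the Srsf genes was lower in SMA in 6 of 9 classes, each with an interval below 0, and close to 0 in Schwann-, microglia- and fibroblast-like cells (0.01, 0.02 and 0.01), where the sign turned with TMM scaling, which put the sum lower in all 9 classes. In mural-like cells the sum was 1627 CPM in SMA and 2139 CPM in Con, a log2 ratio of -0.39 (-0.50 to -0.29). The OPC-like sum was 2545 against 2988 CPM, or -0.23 (-0.26 to -0.21) on the log2 scale. Those are the classes with the widest gaps, and the ratio in mural-like cells was -0.27 with the shared SMA barcodes kept. The summed Hnrnp genes were higher in SMA in 4 classes, at 4200 against 3814 CPM in microglia-like cells (0.14) and 4066 against 3715 CPM in Schwann-like cells (0.13), and lower in the other 5, with a median over the classes of -0.02. The intervals of the Hnrnp sums included 0 in astrocyte-, ependymal- and fibroblast-like cells. The summed Sf3 genes had a median of 0.04, and were higher in 7 of 9 classes, or in 5 of 9 with TMM scaling. Of those 7 only Schwann-like cells had an interval above 0 (0.03 to 0.25), and the OPC-like sum was lower at -0.09 (-0.12 to -0.06). This sum is weighted by the abundant Sf3b6, and most single Sf3 pairs lay below 0.

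Srsf6, an SR protein of exon definition (chr2:162931528-162937121, + strand, GRCm38), was lower in SMA in all 9 classes. Its OPC-like level was 136.7 CPM in SMA against 190.4 CPM in Con (log2 -0.48, -0.58 to -0.38). In mural-like cells it was at 81.2 and 128.2 CPM (-0.66) and in fibroblast-like cells at 65.4 and 108.6 CPM (-0.73). The mural and fibroblast pairs were past 1.5-fold, and with the shared SMA barcodes kept 1 Srsf6 pair was. The smallest gap was that of microglia-like cells, at 188.3 and 202.7 CPM (-0.11), and the median over classes was -0.36. It was lower in every class under all alternatives tried, with medians from -0.40 to -0.30. In the smaller classes Srsf6 was at 54.0 against 79.7 CPM in neuron-like, 109.9 against 159.9 CPM in macrophage-like and 141.9 against 178.2 CPM in oligodendrocyte-like cells, each with overlapping intervals.

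Srsf2, which acts within the nucleus on exons (chr11:116849901-116853094, - strand), was also lower in all 9 classes, from 123.3 against 165.8 CPM in ependymal-like cells (-0.43) to 177.2 against 178.2 CPM in Schwann-like cells (-0.01), with a median of -0.29, but it was lower in 8 of 9 classes when only cells of 5000 UMIs or more were used, in 9 of 11 with a mitochondrial limit of 20% and in 10 of 11 with the shared SMA barcodes kept. Srsf2 overlaps Mettl23 and Mfsd11 on the other strand. Of 35 members compared in all 9 classes, 2 (Srsf2 and Srsf6) were lower in each class, where 5.58% of 2547 genes were, and 4 (Hnrnpl, Hnrnpul1, Sf3b6 and Srsf9) were higher in each, where 11% were. Both shares of members were close to those of all genes, so these counts are no result about the families. With TMM scaling 2 members were higher and 5 lower in each class, and Hnrnpul1 and Srsf9 were higher in 7 of 9. With the shared SMA barcodes kept 0 of 19 members compared in all classes were higher in each and 1 was lower. Hnrnpl and Hnrnpul1 were then higher in 9 of 10 classes, with lowest ratios of -0.44 and -0.43, and Srsf9 in 6 of 10. The classes of 1 library share its preparation and sequencing, so they are not independent repeats. Srsf3 was lower in 7 of 9 classes, or in 9 of 9 with TMM scaling, most in mural-like cells at 308.5 CPM in SMA and 536.1 CPM in Con (171 and 962 UMIs), a log2 ratio of -0.80 (-1.04 to -0.56). That ratio was -0.46 with the shared SMA barcodes kept. Srsf3 in the OPC-like class was at 556.0 against 746.5 CPM (-0.43), and in microglia-like cells the libraries were level at 530.6 and 533.2 CPM.

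Srsf10, a splicing repressor of the SR family (chr4:135855747-135869908, + strand), was higher in SMA in 8 of 9 classes and lower in mural-like cells. It was higher in 6 of 9 with TMM scaling, in 7 of 9 with per-cell means and in 8 of 11 with a mitochondrial limit of 20%. It was at 127.3 CPM in SMA and 81.0 CPM in Con in Schwann-like cells (log2 0.65, 0.29 to 1.01) and at 77.6 and 117.6 CPM in mural-like cells (-0.60, -1.11 to -0.12). The SMA values rest on 112 and 43 UMIs, and with the shared SMA barcodes kept neither was past 1.5-fold. Hnrnpm was the other member lower in mural-like cells, at 110.0 and 176.1 CPM (-0.68), and it overlaps March2 on the same strand, so some of its UMIs may belong to that gene. Mural-like cells numbered 92 in SMA and 263 in Con, and their shares of cycling cells, given above, differed between the libraries. The mural marker list of 11 genes summed to 20790 and 23889 CPM there, the 12 microglia markers to 1620 and 933.4 CPM and the 8 fibroblast markers to 1104 and 673.7 CPM, and their part in these pairs was not tested.

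The SF3 subunits did not move as 1 complex. Sf3b6 (chr12:4817544-4827659, + strand) was higher in SMA in all 9 classes, each with an interval above 0, at 512.3 against 390.6 CPM in mural-like cells (0.39), 353.8 against 290.4 CPM in astrocyte-like cells (0.28) and 449.8 against 411.2 CPM in OPC-like cells (0.13). Its median ratio was 0.30, and it was higher in all classes under every alternative but 1, the shared SMA barcodes kept, where 1 of 11 classes was at -0.03. Sf3a2, a zinc-finger subunit of SF3a (chr10:80798198-80804924, + strand), was lower in all 8 classes compared, at 39.0 against 56.9 CPM in OPC-like cells (-0.55) and 21.6 against 38.4 CPM in ependymal-like cells (-0.83, -1.30 to -0.37). Its median was -0.43, and it was lower in every class under all alternatives, though Plekhj1 overlaps it on the other strand. Sf3b4, which binds RNA upstream of the branch point, was lower in 8 of 9 classes (median -0.27), and Sf3b5 was higher in 8 of 9 (median 0.20). Pairs past 1.5-fold were Sf3b6 (0.64) and Sf3a2 (-0.60, with an interval that included 0) in fibroblast-like cells and Sf3a2 in ependymal-like cells. No Sf3b6 pair was past it with the shared SMA barcodes kept (highest 0.51) or with TMM scaling (highest 0.48).

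The remaining pairs past 1.5-fold were in fibroblast-like cells, where 13.7% of all genes were higher in SMA and 21.2% lower. Hnrnpl, which binds CA repeats, was at 174.5 CPM in SMA and 95.4 CPM in Con there (0.87, 0.53 to 1.20), and at 0.79 without the cluster that held no SMA cell. The highest Hnrnpl ratio of any class was 0.62 with the shared SMA barcodes kept. Hnrnpd, which marks AU-rich mRNAs for decay, was at 28.5 and 58.3 CPM (-1.03, -1.84 to -0.31) on 17 and 163 UMIs. Without that cluster it was at -0.77, on 17 and 70 UMIs, under the minimum of 100. Hnrnph3 (0.61) and Srsf9 (0.59) were higher, and both fell below 1.5-fold without that cluster, at 0.06 and 0.24. Srsf6 was at -0.94, Sf3b6 at 0.62 and Sf3a2 at -0.65 (15 and 57 UMIs) without it, and Srsf2 (-0.64) and Srsf7 (-0.77) were then past 1.5-fold as well. The 8 fibroblast markers summed to 10262 CPM in SMA and 27662 CPM in Con in this class, the 13 astrocyte markers to 2736 and 994.6 CPM, and median UMIs per cell were 8733.5 and 3489. The mitochondrial share was 6.43% and 4.18%, Neat1 stood at 57.0 and 313.4 CPM and haemoglobin at 441.2 and 19636 CPM. The part of these in the pairs was not tested.

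**Figure D3:**
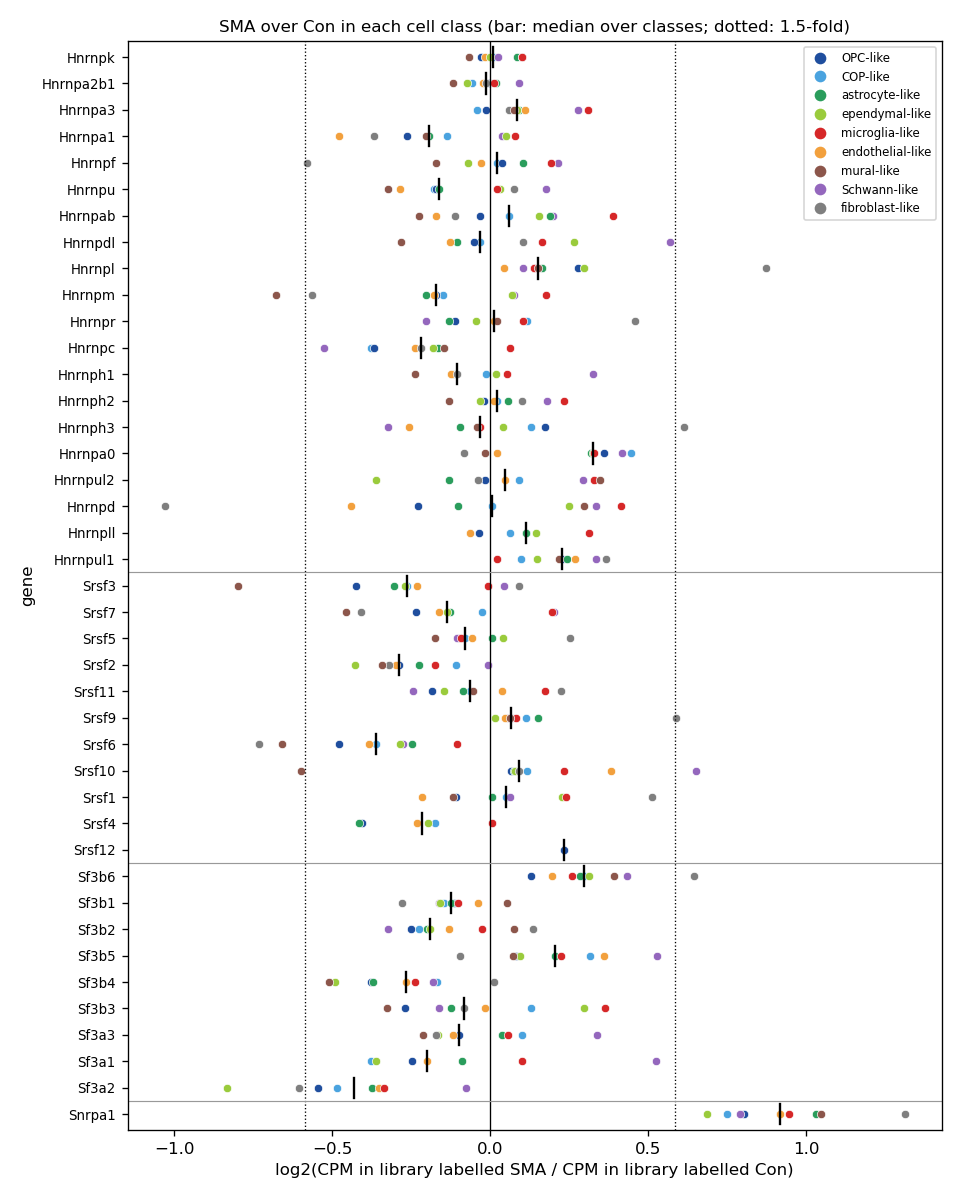
Log2 ratio of CPM in the library labelled SMA to that in Con (x axis) for each member and for Snrpa1 (y axis), 1 point for each class with at least 100 UMIs, coloured by class, with the median over classes as a black bar and 1.5-fold as dotted lines. All points of Srsf6 and Srsf2 lie below 0, all points of Sf3b6 above 0 and all 9 points of Snrpa1 beyond the upper dotted line at 0.68 to 1.31.

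The 95 other splicing genes of 7 lists gave 688 pairs, of which 21 (3.05%) were 1.5-fold or more higher in SMA and 15 (2.18%) lower, against 3.63% and 4.05% of all pairs. Of the 21, 9 were those of a single gene, Snrpa1 (chr7:66059003-66074587, + strand), which encodes the A′ protein of the U2 snRNP. Its levels were 325.3 CPM in SMA against 186.5 CPM in Con in OPC-like cells (0.80, 0.72 to 0.88), 181.4 and 88.8 CPM in astrocyte-like cells (1.03) and 115.1 and 59.9 CPM in microglia-like cells (0.94). The lowest ratio was 0.68 in ependymal-like cells and the highest 1.31 in fibroblast-like cells, the median was 0.92 and every interval was above 0. Ranked by their lowest ratio over the classes, only mt-Nd4l (1.03) and Hist1h2bc (0.72) stood above Snrpa1 among the 2547 genes compared in all 9 classes. With the shared SMA barcodes kept, Snrpa1 was higher in all 10 classes compared and past 1.5-fold in 8, with a lowest ratio of 0.03.

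The other lists held single genes. In the list of 10 U2 helpers, 10 of 89 pairs were higher and 0 lower, and the one not from Snrpa1 was Dhx15, a helicase of spliceosome release, in endothelial-like cells (60.6 against 36.9 CPM). In the list of the U4/U6.U5 tri-snRNP, Usp39 was lower in OPC-like (24.2 against 37.4 CPM), endothelial- and ependymal-like cells, and Prpf8, the U5 scaffold, was higher in endothelial- and microglia-like cells (62.1 against 40.6 CPM in the latter). That list had 5 pairs higher and 3 lower of 103, with Ddx23 at 33.7 against 19.6 CPM in microglia-like cells among the higher. In the U1 list 1 of 27 pairs was past 1.5-fold, Snrpa in mural-like cells (92.0 against 143.2 CPM).

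In the list of the Prp19 complex, which activates the spliceosome, 1 of 75 pairs was higher (Syf2 in fibroblast-like cells) and 2 lower (Ctnnbl1 in endothelial-like and Isy1 in fibroblast-like cells). Among SR-related genes 1 of 126 pairs was lower, Rbm5 in Schwann-like cells. Among SR kinases, which phosphorylate the Srsf proteins, 1 of 52 was higher (Clk4 in Schwann-like cells) and 1 lower (Srpk1 in mural-like cells, at 19.8 against 65.2 CPM on 11 SMA UMIs). Of 216 pairs of other RNA-binding regulators 4 were higher and 7 lower. Ptbp1, which represses neuronal exons, was lower in mural-like (50.5 against 107.0 CPM) and fibroblast-like cells. Celf1 was lower in fibroblast-like cells, and Elavl4 was higher in COP-like cells (46.3 against 28.2 CPM) and lower in microglia-like cells (8.90 against 14.8 CPM).

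**Figure D4:**
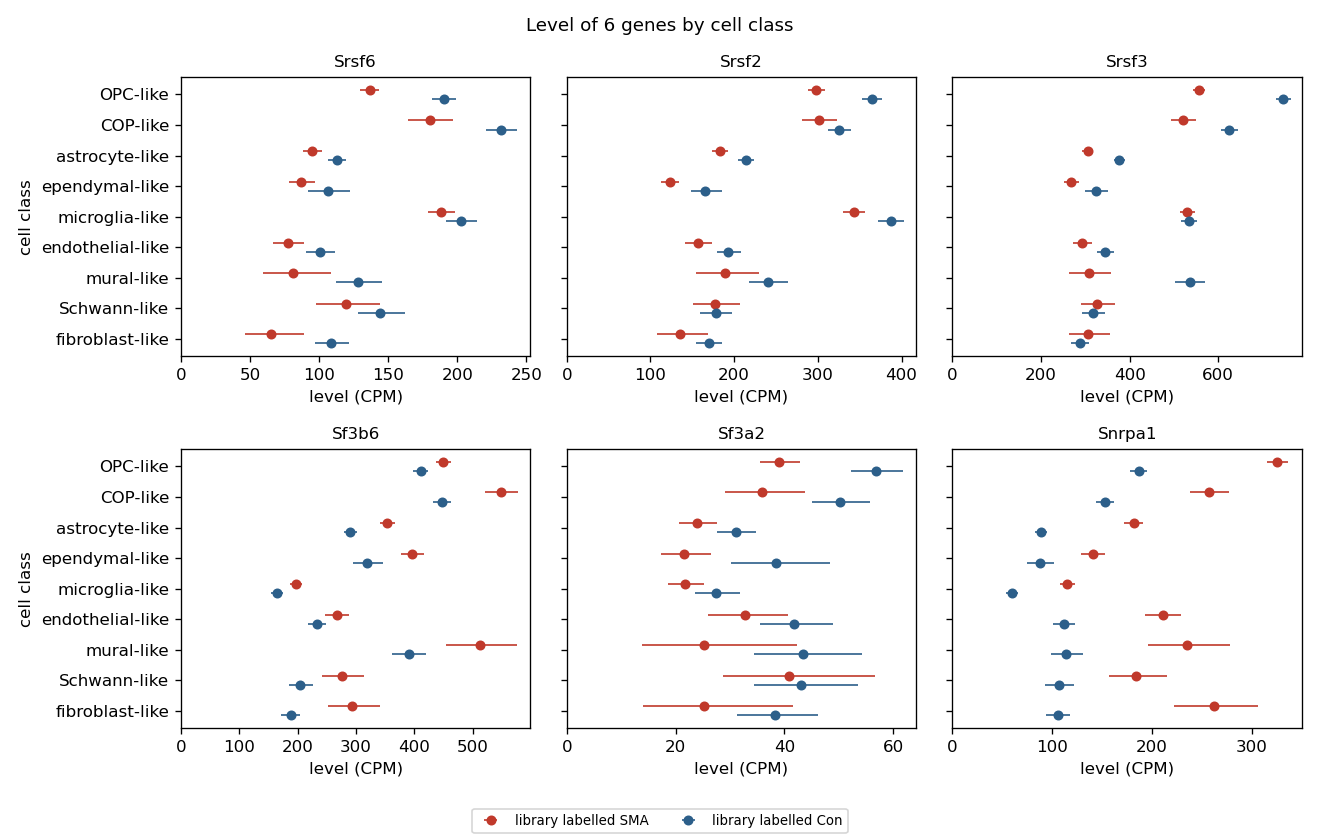
Level in CPM (x axis, from 0) of Srsf6, Srsf2, Srsf3, Sf3b6, Sf3a2 and Snrpa1 in each of 9 classes (y axis) in the library labelled SMA (red) and Con (blue), with exact 95% Poisson intervals. Srsf6, Srsf2 and Sf3a2 lie to the left in SMA in every class, Sf3b6 and Snrpa1 to the right, and Srsf3 in mural-like cells is at 536.1 CPM in Con and 308.5 CPM in SMA.

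Within a library, cycling cells were set against non-cycling cells of the same class. Cells thinned to 1000 UMIs were called cycling with at least 2 UMIs of 18 genes of S, G2 and M phase and non-cycling with 0, and 3 classes held enough of both. Cells with 1 UMI of the list, such as 215 SMA and 217 Con OPC-like cells, were near the limit and left out. The 2 sides were not matched for cluster or maturity. An astrocyte-like cluster of 146 SMA and 182 Con cells had 12 cycling genes and 0 astrocyte markers among its 60 leading genes, though 13 such markers were detected. OPC-like clusters of 287 and 261 and of 203 and 195 cells had 12 and 11 cycling genes and 0 OPC markers there. On the CPM scale most members were higher in cycling cells in both libraries, and few by 1.5-fold. In OPC-like cells (475 SMA and 443 Con cycling cells) 33 of 40 were above 0 in both libraries, against 23.6% of all genes, with medians of 0.31 and 0.21 where all genes gave -0.16 and -0.15, but 0 were past 1.5-fold higher, against 6.19%, or lower, against 6.58%. In astrocyte-like cells (140 and 163 cycling cells) 35 of 39 were above 0 in both, against 33.1% of all genes, and 6 (15.4%) were past 1.5-fold, against 6.38%, and 0 lower, against 3.89%. In microglia-like cells (117 and 56 cycling cells) 33 of 39 were above 0 in both, against 29.8%, and 4 (10.3%) were past 1.5-fold, against 6.4%, and 0 lower, against 3.84%. The medians were 0.45 and 0.37 in astrocyte-like and 0.22 and 0.24 in microglia-like cells, where those of all genes lay between -0.03 and 0.00. The counts past 1.5-fold depended on the settings. A cycling limit of 1 UMI left 1 member in astrocyte-like and 0 in microglia-like cells, and centring on the median ratio gave 4 in OPC-like cells.

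Hnrnpab, whose protein binds RNA and the CArG box of DNA, had the largest ratios of the members in astrocyte-like cells but not in the other classes. In astrocyte-like cells it went from 95.3 CPM in non-cycling to 214.1 CPM in cycling cells in SMA (1.17) and from 84.0 to 172.8 CPM in Con (1.04, 0.81 to 1.27). In microglia-like cells its ratios were 0.60 and 0.63. Hnrnpa3 was the other gene past 1.5-fold in 2 classes, at 0.80 and 0.66 in astrocyte-like and 0.63 and 0.70 in microglia-like cells. The upstream windows of both, printed above, hold a CCAAT box, which 18 of the 36 members have within 250 bases. Hnrnpa1 (0.87 and 0.64), Hnrnpul1 (0.82 and 0.78), Srsf7 (0.83 and 0.68) and Srsf3 (0.63 and 0.61) were the others in astrocyte-like cells, and Hnrnpd (0.70 and 0.59) and Srsf1 (0.60 and 0.60) in microglia-like cells. Of the 39 members compared in all 3 classes, 26 (66.7%) were above 0 in both libraries each time, where 13.8% of 7131 genes were. With TMM scaling these were 13 members (33.3%) and 7.88% of the genes.

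By family, the summed Srsf genes were higher in cycling OPC-like cells by 0.38 in SMA and 0.30 in Con, the Hnrnp genes by 0.29 and 0.25 and the Sf3 genes by 0.13 and 0.10. In astrocyte-like cells the Hnrnp genes (0.48 and 0.44) and Srsf genes (0.49 and 0.42) were above the Sf3 genes (0.25 and 0.20) as well. In microglia-like cells the families lay close together, from 0.21 to 0.31. Cycling cells were deeper in each class and library, with medians of 6693 against 5420 UMIs in SMA OPC-like cells and 7782 against 5914 UMIs in Con astrocyte-like cells, and their Malat1 level was lower, at 22221 against 35917 CPM in Con astrocyte-like cells. The part of these in the ratios was not tested. TMM scaling lowered the ratios by 0.17 to 0.34 in astrocyte- and microglia-like cells, and left 2 and 0 members past 1.5-fold. In microglia-like cells it lowered them by 0.19 in SMA and 0.34 in Con, where the Con median of the members was 0.24. With TMM scaling that median was thus below 0, and most members there were not higher in both libraries.

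From non-cycling OPC-like to COP-like cells, the next stage of the lineage, few members differed by 1.5-fold. Of 40 members 0 were past 1.5-fold higher in both libraries, against 8.6% of all genes, and 1 (2.5%) was lower, against 20.4%. This was Hnrnpll, known for exon choice in the Ptprc gene of lymphocytes, at 50.4 CPM in COP-like and 85.3 CPM in OPC-like cells in SMA (-0.76, -1.04 to -0.49) and at 48.3 and 89.3 CPM in Con (-0.89). In both libraries 8 members were above 0 (20%, against 29.4% of all genes) and 22 below 0 (55%, against 53.7%), with medians of -0.05 and -0.11 where those of all genes were -0.12 and -0.19. By the ratio nearer to 0, Srsf10 was next among the lower genes (-0.55 and -0.64), while Srsf12 was at -1.19 in SMA, on 17 and 99 UMIs, and -0.49 in Con. Srsf6 (0.53 and 0.32) and Hnrnpab (0.43 and 0.35) were the highest, and these 4 were named after their values were seen. Oligodendrocyte-like cells, of which Con held 42, were not compared.

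**Figure D5:**
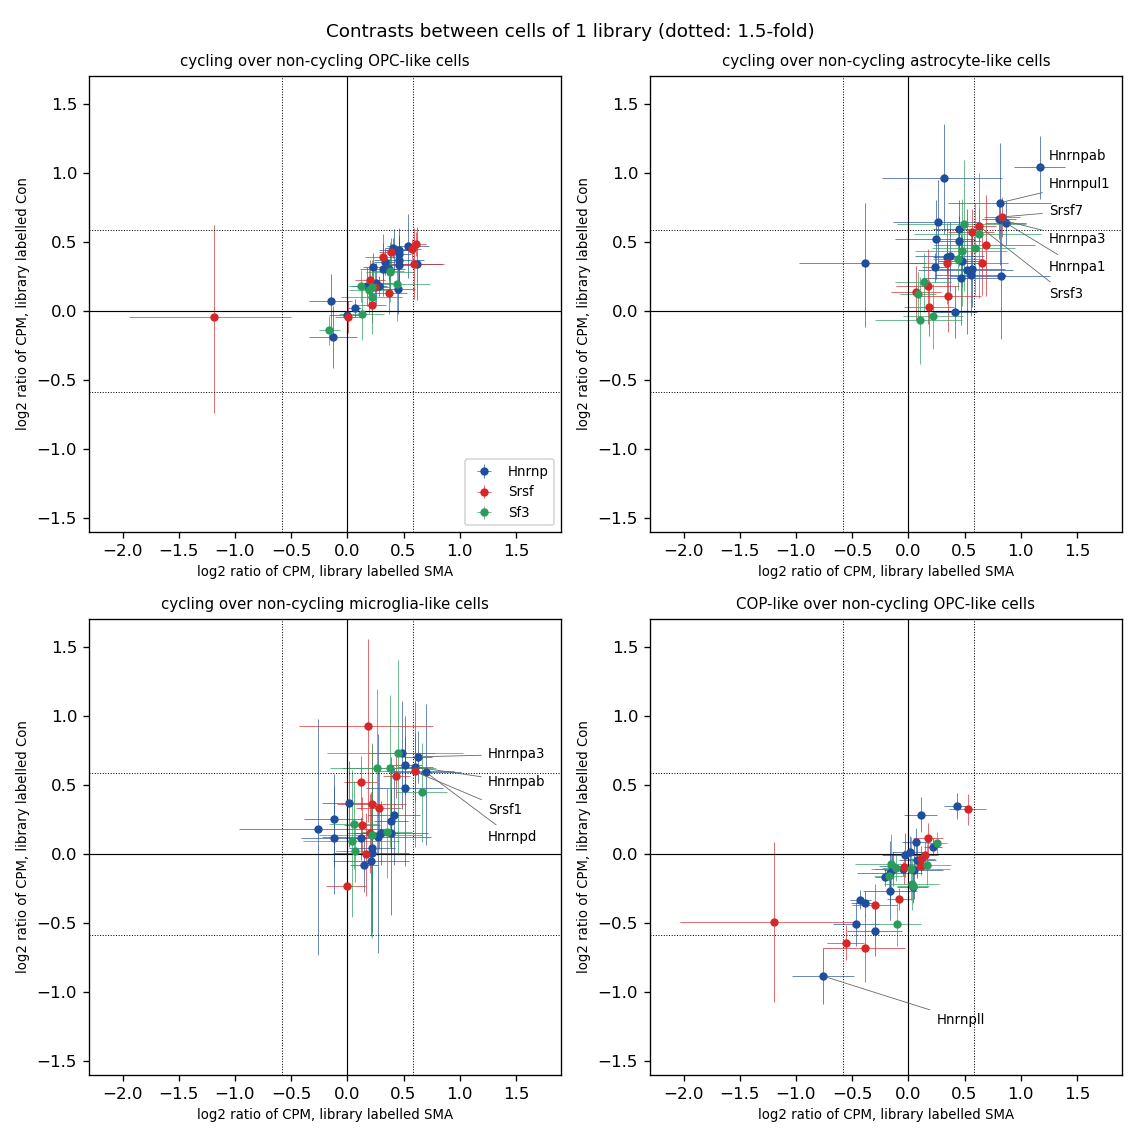
Log2 ratio of CPM in the library labelled SMA (x axis) and Con (y axis) for each member, coloured by family, in 4 contrasts between cells of 1 library: cycling over non-cycling OPC-like, astrocyte-like and microglia-like cells, and COP-like over non-cycling OPC-like cells. Lines are exact 95% intervals, dotted lines mark 1.5-fold, and members past it the same way in both libraries are named: 6 in astrocyte-like cells, 4 in microglia-like cells and Hnrnpll in COP-like cells.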

How the data were processed

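Per the labels and the methods, dissociated spinal cords were run on the 10x Genomics platform, and Cell Ranger aligned the reads to mm10 and counted UMIs. The matrices were deposited by the authors as raw UMI counts, 1 matrix per library, and no column belonged to another series. The file headers name Cell Ranger 4.0.0. How the deposited barcodes overlap between libraries is given in the report.

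Barcodes with 200 to 4000 genes and at most 10% mitochondrial UMIs were kept, SMA barcodes also listed in Con and a cluster with over 30% ribosomal UMIs were left out, and no doublet caller was run. Cells were clustered in scanpy 1.11.5 (2000 variable genes, 30 components, 20 neighbours, resolution 1) and named from marker lists. UMIs were summed per class and library and divided by the class total (CPM). Pairs with at least 100 UMIs were compared as log2 ratios, and 1.5-fold was the threshold for counting. Intervals are exact Poisson intervals for levels and exact binomial intervals for ratios at 95%, computed with scipy 1.17.1 in Python 3.11.15. They cover counting error only, and 1 library per group allows no test. The SMA over Con ratios, their intervals and the 1.5-fold calls were checked on simulated Poisson counts with known changes put in. The intervals assume such counts. The other statistics, among them the cycling calls and the contrasts within a library, were not simulated. Kept cells had medians of 6109 (SMA) and 6228 UMIs (Con). Alternatives were TMM scaling (edgeR 4.0.16 in R 4.3.3), centring, another denominator, per-cell means, other filters, minimums, resolutions and cycling limits, and the left-out barcodes kept.

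Members and lists were chosen with earlier results of these data known. Genes were named by a rule: the 4 highest of each family by mean CPM, up to 2 highest and 2 lowest past 1.5-fold per class between libraries, the 10 largest ratios of a class over the others, up to 5 each way past 1.5-fold in contrasts within a library, Smn1, and up to 3 per list of other splicing genes. Other genes were named after their values were seen. Gene positions are those of GENCODE M21 (GRCm38).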

Additional observations from a re-analysis of the deposited data

Results flagged for a closer look

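The barcodes that entered no comparison carried the splicing factors too. The 8163 SMA barcodes also listed in the Con library held 6605.72 CPM of the 40 genes (6563 to 6649). The 1333 Con barcodes of the cluster with a high ribosomal share held 21360.7 CPM (21087 to 21637), above the highest summed level of any class compared, 10923 CPM in Con OPC-like cells. Both were noted because they are signals in data outside the comparisons, and their source was not tested.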

How the results depend on the processing

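No paired analysis was possible because each group was 1 library. Of the values that answer a comparison, 186 stayed within the limits set under an alternative and 23 moved. With TMM scaling the median over classes of the summed Hnrnp genes went from -0.0222 to -0.0612, member pairs higher in SMA from 5 to 1, pairs above and below the other classes from 32 and 30 to 21 and 19, and members higher in cycling astrocyte- and microglia-like cells from 6 and 4 to 2 and 0. It also put microglia-like cells, not OPC-like cells, first by the summed level of the members in both libraries, and members higher in OPC-like cells went from 18 to 4. TMM moved all SMA over Con ratios of a class by -0.16 (fibroblast-like), -0.12 (COP-like), -0.10 (Schwann-like) and by less elsewhere. Pairs higher in SMA were 3 without the fibroblast-like cluster that held no SMA cell (chosen after seeing the data), 3 with a minimum of 300 UMIs, 2 with a mitochondrial limit of 20% and 2 with the shared SMA barcodes kept. Pairs lower in SMA went from 8 to 3 with a minimum of 300 UMIs and to 13 at resolution 0.5. Members higher in cycling OPC-like cells went from 0 to 4 with centring. A cycling limit of 1 UMI left 1 in astrocyte-like and 0 in microglia-like cells, where per-cell means and resolution 2 each gave 2. Members lower in COP-like cells were 2 in place of 1 with haemoglobin, mitochondrial and ribosomal genes out of the denominator. For other splicing genes, pairs higher in SMA went from 21 to 12, 33 and 59 with a minimum of 300 UMIs, of 50 UMIs and with none, and pairs lower from 15 to 4 with 300 and 32 with none, where more or fewer genes were counted. Of the values past 1.5-fold, Mbnl2 in fibroblast-like cells changed sign, from -0.73 to 0.22 without the cluster that held no SMA cell. Among values near 0, the median of the summed Hnrnp genes went to 0.0050 with a mitochondrial limit of 20%, and the summed Srsf genes turned below 0 with TMM scaling in Schwann-, microglia- and fibroblast-like cells. The cause of the other moves was not tested.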
